A study of Mus musculus with 6 samples.

Results

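p53 binding was examined at 10 mouse genes of energy metabolism and antioxidant defence: Gls2, Aldh4a1, Gpx1, Sco2, Lpin1, Cpt1c, Pank1, Fdxr, Hk2 and Slc2a1. They were taken by name, as genes linked to p53, out of 22380 protein-coding genes of the GENCODE vM1 annotation on mm9. All 10 were found in it once. The choice was made with earlier results of these data known. A p53 peak, a region where fragments pulled down with a p53 antibody pile up, was assigned to a gene when it overlapped the gene body extended by 10 kb on both sides.

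The study had 6 libraries, of which 5 came with a peak list. B cells were taken from spleens of C57/Bl6 Trp53+/+ mice aged 8 weeks with beads against B220, a B cell surface marker, and non-B cells were what these beads left behind. Mice were mock treated or received 7 Gy of whole-body irradiation 4 h before collection (IR). This gave the groups mock and irradiated B cells, and mock and irradiated non-B cells. The group Trp53-/- spleen IR was total spleen from irradiated C57/Bl6 mice lacking p53, with no age in the labels. Chromatin was pooled from several animals, and each group had 1 library. No difference between groups could therefore be set against a replicate spread, and no test was run. Cell types were not checked against markers here, since these libraries hold p53 binding and not expression.

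Damage to DNA stabilises p53, a transcription factor whose response element is made of 2 neighbouring decamers of 10 bases. It is best known for cell cycle arrest and apoptosis, but it also acts on glucose use, glutamine and proline metabolism, fatty acid oxidation, mitochondrial respiration and the removal of peroxides. Binding near a gene does not by itself say that the gene is regulated.

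Response elements were searched first, as the sequences on which binding can rest. The search was for the p53 response element by name, a pair of decamers with the core CNNG whole in both. Up to 3 mismatches were allowed without a spacer (unsplit) and up to 2 with a spacer of 1 to 15 bases. The decamer consensus is its own reverse complement, so both strands were covered. The unsplit element was present at 6 of the 26 sites of the members, a site being overlapping peaks of any list merged. Here it counted when inside a peak or within 300 bp of a peak midpoint. Shares of all peaks, given further below, use only the window around the midpoint. The unsplit element never had fewer than 2 mismatches. The following are shown because they lie at the sites with the highest peak of Aldh4a1, Lpin1 and Cpt1c, the start site of Gpx1 and the site of Slc2a1 that ranked second in irradiated B cells. Each was read from the mm9 reference genome and is written 5′ to 3′ along the gene, with the decamers in capitals:
Lpin1, intron, minus strand, chr12:16595052-16595161, spacer of 10 bases, 1 mismatch: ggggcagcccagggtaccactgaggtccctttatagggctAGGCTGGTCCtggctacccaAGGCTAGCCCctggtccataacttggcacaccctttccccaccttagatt
Aldh4a1, UTR, plus strand, chr4:139178973-139179002, unsplit, 2 mismatches: gctccGGGCTTGTCTAGTCCAGCCCggtgg
Slc2a1, intron, plus strand, chr4:118798215-118798314, unsplit, 3 mismatches: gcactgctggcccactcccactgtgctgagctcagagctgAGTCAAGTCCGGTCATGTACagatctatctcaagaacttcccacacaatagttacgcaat
Gpx1, upstream of the start, plus strand, chr9:108241365-108241464, unsplit, 3 mismatches: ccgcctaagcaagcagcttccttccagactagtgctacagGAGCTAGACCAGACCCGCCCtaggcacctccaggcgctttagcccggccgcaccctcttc
Cpt1c, intron, minus strand, chr7:52229834-52229934, spacer of 1 base, 2 mismatches: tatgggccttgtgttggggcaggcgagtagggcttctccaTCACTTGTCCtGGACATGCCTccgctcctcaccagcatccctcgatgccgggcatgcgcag

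In Aldh4a1, Lpin1 and Cpt1c all mismatches of the printed element fell in 1 decamer and the other matched the consensus in full, while in Slc2a1 and Gpx1 both decamers carried mismatches. At Gpx1 a form with a spacer of 5 bases and 2 mismatches shared the first decamer of the one shown. At Lpin1 a form with a spacer of 15 bases and 1 mismatch shared the second decamer of the one shown. Each of these elements occurred once in the reference genome as an exact match. Other sequences within the same mismatch limits were not part of that count, so it does not show that such elements are rare.

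The first comparison asked how many of the genes had a p53 peak in each list. After irradiation 9 of the 10 did in B cells, all but Gls2, against 53.4% of all protein-coding genes. In non-B cells 9 did as well, all but Sco2, against 51.8%. In mock B cells the number was 2, Aldh4a1 and Slc2a1, against 4.45% of all genes. In mock non-B cells it was 0 against 2.27%, and in Trp53-/- spleen IR it was 0 against 0.125%. The mock lists were far shorter, with 1413 and 712 peaks, and held peaks down to 53 bp, where the wild-type IR lists held none under 174 bp. How far this difference in the lists bears on the counts was not tested. No peak of a member overlapped a Trp53-/- peak. That list held only 83 peaks, down to 55 bp. Without the peaks that overlapped it, the shares of all genes in the wild-type IR lists stayed at 53.4% and 51.8%. Few genes of any kind were therefore affected. A peak in B cells after irradiation and none in mock was found for 7 members, against 49% of all genes. In non-B cells this pattern was found for 9, against 49.6%.

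A longer gene gives a larger window, and the members' windows had a median of 41.2 kb against 35.4 kb for all protein-coding genes. The count around the start site, taken as 5 kb before to 2 kb after each annotated start, uses a window that does not grow with gene length itself. That window can grow with the number of annotated starts, which ran from 1 at Gpx1 to 11 at Gls2. Members and all genes were not matched for it. By this count 9 members had a peak in irradiated B cells against 39.5% of all genes, and 8 in irradiated non-B cells against 38.4%, where Gls2 and Sco2 were without one. In mock B cells only Aldh4a1 had one, against 1.96% of all genes. There was none in mock non-B cells, against 0.947%, and none in Trp53-/- spleen IR, against 0.067%. With both counts the members' share in the IR lists was above that of all genes. The same held for the 2 lists of related genes given further below, so this was not particular to the members. All genes were not limited to those active in these cells. Moreover, the members were picked as p53-linked with earlier results of these data known, and their number is 10.

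**Figure D1:**
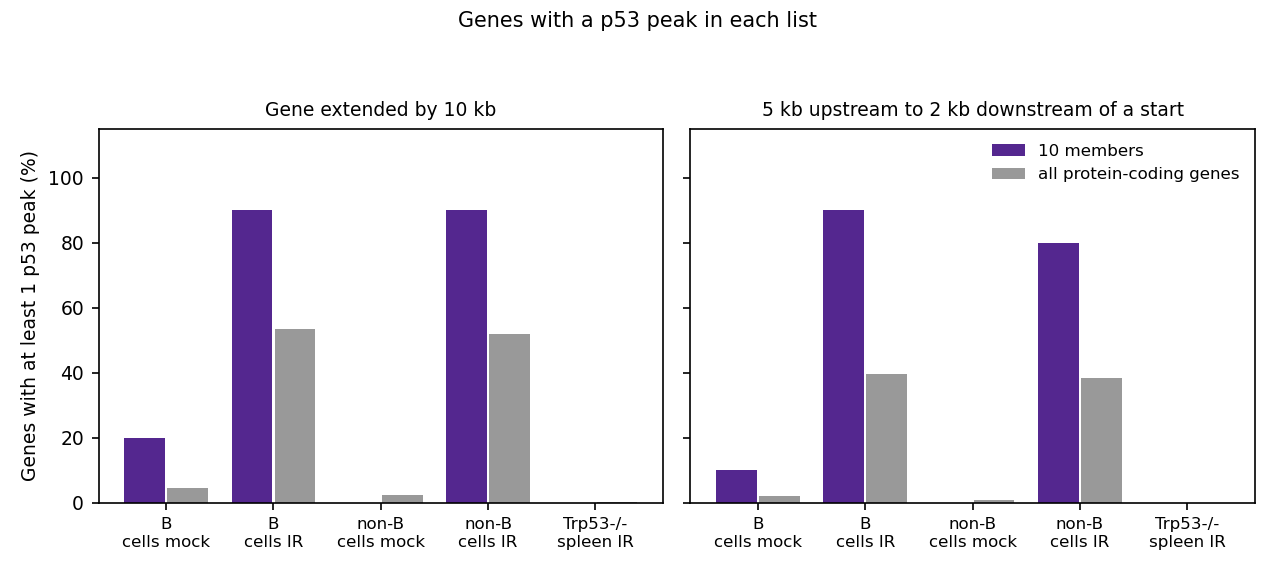
Percent of genes with at least 1 p53 peak in each of the 5 lists, for the 10 members (purple) and for all protein-coding genes (grey), in the gene extended by 10 kb (left) and around annotated starts (right). The members stand at 80 to 90% in the IR lists, and no bar for them is present in mock non-B cells and Trp53-/- spleen IR.

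The peaks of the members were frequent, and most were outside the highest 20% of their lists. The deposited value of a peak was taken to be −log10 of the p-value of the peak caller. This was inferred from its range and the study's methods and may be wrong, since 447 of the 1413 values in mock B cells lie under 8, the limit those methods give. Nothing shows that it was scaled between libraries, and peaks were therefore ranked within their own list, with rank 1 for the highest. There were 27 member peaks among 24507 in irradiated B cells and 22 among 21400 in irradiated non-B cells. Their median rank, as a percent of the list counted from the top, was 61.9% in irradiated B cells, below the middle of the list. In irradiated non-B cells it was 43.1%, above the middle. Of the 27 peaks 4 were in the highest 20% of irradiated B cells, and of the 22 peaks 3 were in the highest 20% of irradiated non-B cells. Per gene, Lpin1, Slc2a1, Aldh4a1 and Gpx1 had such a peak in irradiated B cells, 4 of 10 against 16.2% of all genes, and the first 3 of them in irradiated non-B cells against 16.7%. The best peak of Gpx1 in irradiated non-B cells was at 20.8%, just outside this limit. A gene with several peaks is more likely to have such a peak, and members and all genes were not matched for their number.

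By their best peak Lpin1 came first in both compartments. In irradiated B cells Slc2a1, Aldh4a1, Gpx1, Cpt1c, Pank1, Fdxr, Hk2 and Sco2 followed, and in irradiated non-B cells Aldh4a1, Slc2a1, Gpx1, Cpt1c, Fdxr, Pank1, Hk2 and Gls2. With 1 library per group there is no spread by which neighbours in this order could be told apart.

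**Figure D2:**
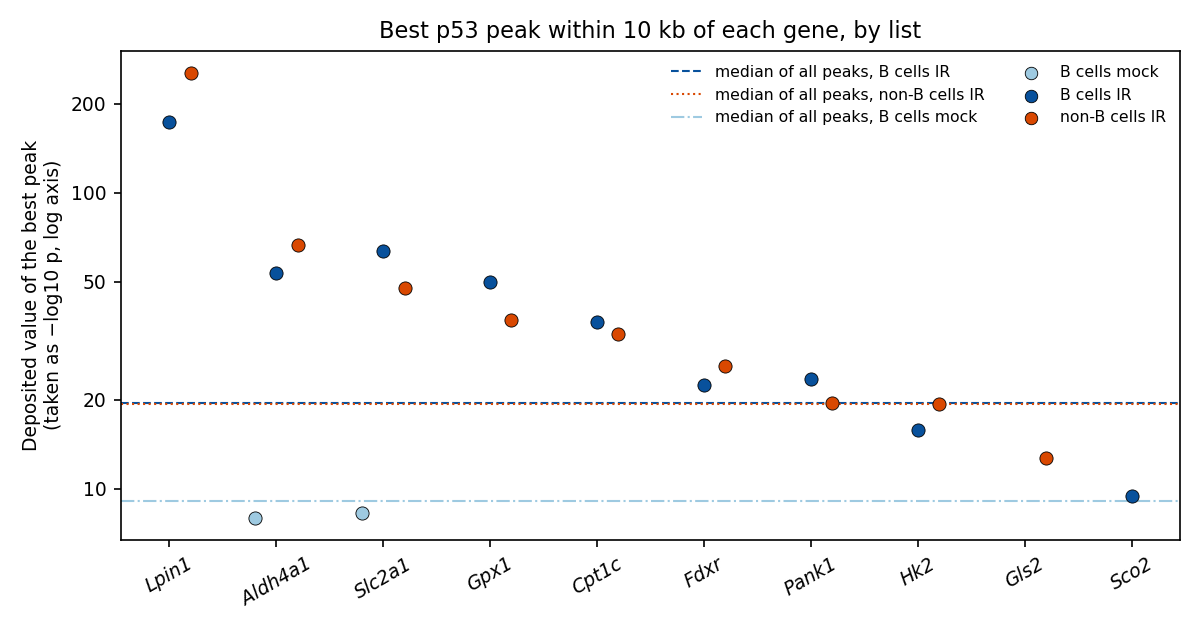
Deposited value (taken as −log10 p, log axis) of the best peak at each gene in mock B cells, irradiated B cells and irradiated non-B cells, 1 library each, with the median of all peaks of each list as a line. Lpin1 stands highest, at 174 and 254, and the 2 mock peaks lie at 8.0 and 8.3, below the mock median of 9.08.

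Among the genes of glucose use, Slc2a1 encodes the glucose transporter GLUT1 and Hk2 encodes hexokinase 2, which phosphorylates glucose on entry. Slc2a1 (chromosome 4, 118781316 to 118809935, plus strand) had its highest peak inside the gene, in an intron, 18741 bp from the start. It was at 118799697 to 118800417 in irradiated B cells, with a value of 63.5 and rank 2294. In irradiated non-B cells it was at 118799748 to 118800199, with a value of 47.7 and rank 2955. A short peak was already present there in mock B cells, at 118799986 to 118800077, with a value of 8.30 and rank 890 of 1413. This site held neither form of the element within the limits used, whereas the neighbouring intronic site at 118797894 to 118798734 held the unsplit element printed above. That neighbour had a value of 37.1 in irradiated B cells and 26.75 in irradiated non-B cells. Upstream, at -2773 bp from the start, lay a further site with 22.9 in irradiated B cells and 32.7 in irradiated non-B cells. Irradiated B cells had 6 peaks at Slc2a1, as many as irradiated non-B cells had at Lpin1, and 2 of its sites, with values of 10.2 and 10.1, were not in the irradiated non-B cells list.

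Hk2 (chromosome 6, 82675019 to 82724448, minus strand) had 4 peaks in irradiated B cells and 3 in irradiated non-B cells, none above the median of its list. Their values were 7.46, 7.46, 14.1 and 15.8 in irradiated B cells, each below the list median of 19.5. They were 12.1, 16.25 and 19.4 in irradiated non-B cells, where the median was also 19.4. The highest lay in an intron, with its midpoint 34009 bp from the start in B cells, at 82690342 to 82690537 in irradiated B cells and 82690271 to 82690508 in irradiated non-B cells. An unsplit element with 3 mismatches was found near it, at 82690576 to 82690595, outside both peaks. An element with a spacer of 1 base and 1 mismatch was at 82690667 to 82690687, also outside both peaks. At the start site the 2 B cells peaks were joined into 1 site by a single non-B cells peak.

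Of the genes of glutamine and proline use, Gls2 encodes a mitochondrial glutaminase that makes glutamate, a precursor of glutathione, and Aldh4a1 encodes the mitochondrial enzyme of the last step from proline to glutamate. At Gls2 (chromosome 10, 127631513 to 127647060, plus strand) only irradiated non-B cells had a peak, at 127648819 to 127648996, with a value of 12.7 and rank 15788 of 21400. It lay downstream of the gene, and its midpoint was 57 bp upstream of a start of the neighbour Spryd4. No list had a peak around any of the 11 annotated starts of Gls2. Widening the window to 50 kb added a peak in irradiated B cells to Gls2, so that all 10 members then had one, where 71% of all genes did.

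Aldh4a1 (chromosome 4, 139178781 to 139205605, plus strand) was bound at its start in 3 of the 4 wild-type lists. In mock B cells the peak was at 139178924 to 139178987, with a value of 8.00 and rank 908. In irradiated B cells it was at 139178632 to 139179481, with 53.45 and rank 3051. In irradiated non-B cells it was at 139178670 to 139179306, with 66.6 and rank 1719. The element printed above lay whole inside both IR peaks and partly inside the mock peak. A lower site at -6011 bp from the start, inside the neighbouring gene Iffo2, had 13.1 in irradiated B cells and 7.66 in irradiated non-B cells.

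Among the genes of lipid and coenzyme A metabolism Lpin1 stood out. It encodes lipin 1, a phosphatidate phosphatase that also acts with transcription factors on fatty acid oxidation genes, and the gene spans 16542475 to 16596576 of chromosome 12 (minus strand). Its main peak was in an intron, 1407 bp from the start in B cells. It was at 16594343 to 16595996 in irradiated B cells, with a value of 174 and rank 379, within the highest 1.55% of the list. In irradiated non-B cells it was at 16594416 to 16596104, with 254 and rank 257, within the highest 1.2%. Both peaks were wide, 1654 and 1689 bp, and held 2 unsplit elements, with 2 and 3 mismatches, beside the spaced element near their middle that is printed above. Neither mock list had a peak at Lpin1 within 10 kb. A further 4 sites of Lpin1 were found in both IR lists: at the start (9.25 in irradiated B cells and 10.2 in irradiated non-B cells), upstream of it (30.1 and 24.1), deeper in the gene (25.7 and 25.9) and past its end (8.41 and 11.25).

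Cpt1c, a member of the carnitine palmitoyltransferase 1 family that is mainly known from the brain, had a single site (gene on chromosome 7, 52214743 to 52230184, minus strand). The peak lay in an intron close to the start, at 52229662 to 52230062 in irradiated B cells, with a value of 36.5 and rank 5491. It was at 52229726 to 52230063 in irradiated non-B cells, with 33.45 and rank 5232. The element with a spacer of 1 base printed above was inside both peaks. Pank1, a pantothenate kinase that starts coenzyme A synthesis, spans 34885384 to 34953945 of chromosome 19 (minus strand). Near an internal start it had a peak at 34952372 to 34953016 in irradiated B cells, with 23.5 and rank 9990, and at 34952412 to 34952633 in irradiated non-B cells, with 19.5 and rank 10355. A peak in its UTR, with 12.8, and one past its end, with 10.2, were listed in irradiated B cells alone, and the one in the UTR held an element with a spacer of 8 bases and 1 mismatch.

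Fdxr and Sco2 serve mitochondrial electron transfer. Fdxr encodes ferredoxin reductase, which passes electrons from NADPH to ferredoxin, and Sco2 encodes a copper chaperone needed to assemble cytochrome c oxidase. At Fdxr (chromosome 11, 115129338 to 115138364, minus strand) the peak covered the start. It was at 115138350 to 115138880 in irradiated B cells, with a value of 22.5 and rank 10537, and at 115138350 to 115138726 in irradiated non-B cells, with 26.1 and rank 7417. Sco2 (chromosome 15, 89202113 to 89202880, minus strand) had 1 peak, in irradiated B cells, at 89203829 to 89204370, with 9.46 and rank 21676 of 24507. That peak overlapped the end of the neighbouring gene Tymp, with its midpoint at -1219 bp from the Sco2 start. No element was found at the sites of Fdxr, Sco2 or Gls2.

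Gpx1, the glutathione peroxidase that reduces hydrogen peroxide in the cytosol, is a short gene (chromosome 9, 108241607 to 108242671, plus strand) and had 4 sites, all in both IR lists and in neither mock list. The site at the start was at 108241406 to 108241780 in irradiated B cells, with a value of 17.4 and rank 13565. It was at 108241310 to 108241642 in irradiated non-B cells, with 37.1 and rank 4450. The element printed above was whole inside the non-B cells peak and at the edge of the B cells peak. Just past the gene end the order was the other way round, with 26.9 and rank 8382 in irradiated B cells at 108242736 to 108243127, and 9.52 and rank 18969 in irradiated non-B cells at 108242742 to 108243127. The highest peak of Gpx1 in irradiated B cells, at 108244610 to 108245270, had 49.9 and rank 3435, and its counterpart in irradiated non-B cells had 31.2 and rank 5779. The fourth site, with 15.1 and 13.6, covered the start of the neighbour Usp4. The 2 compartments thus gave the sites of Gpx1 different orders, which 1 library per group does not allow to be tested.

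**Figure D3:**
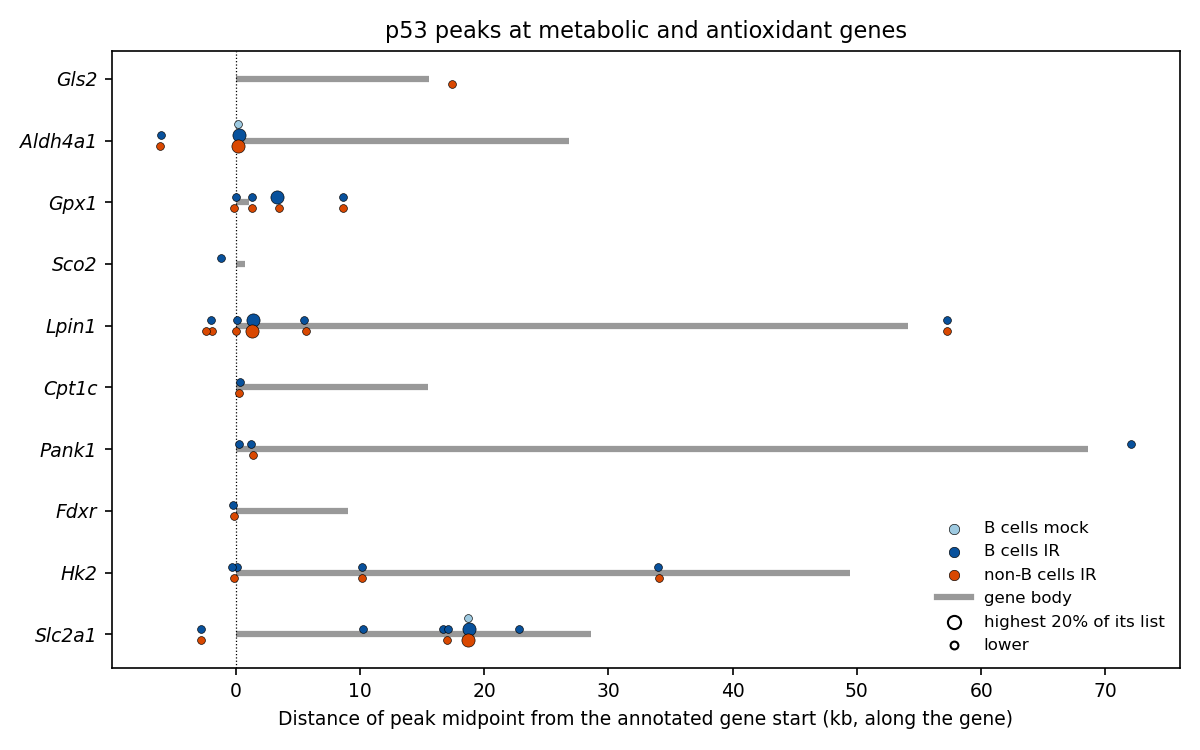
Midpoint of every member peak relative to the annotated gene start (kb, along the gene), with the gene body as a grey bar and large circles for peaks in the highest 20% of their list. The 2 peaks of mock B cells, at Aldh4a1 and Slc2a1, sit over the highest IR peak of their gene, and large circles are present at Aldh4a1, Gpx1, Lpin1 and Slc2a1 only.

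The sites were then compared between compartments. Of the 26 sites, 25 were found in irradiated B cells and 21 in irradiated non-B cells, with 20 in both. Counted by peaks, 22 of 27 member peaks of irradiated B cells overlapped one of the other compartment, against 73.6% of all peaks of that list. In irradiated non-B cells 21 of 22 did, against 85.3%. The 5 sites of irradiated B cells alone, at Sco2, Pank1 and Slc2a1, had values of 9.46 to 12.8, and the best of them ranked 73.4% down its list. The single site of irradiated non-B cells alone, at Gls2, ranked 73.8% down. These sites were all in the lower part of their list, as were most unshared peaks of the lists as a whole: 90.1% of them lay below the top 50% in irradiated B cells and 88.2% in irradiated non-B cells. Shared sites of the members reached lower still, down to a value of 7.46 and 96.5% at the start of Hk2 in irradiated B cells. Among the 20 shared sites the rank, taken as a percent of its list, was nearer the top in B cells for 9, and for the other 11 it was nearer the top in non-B cells. By the rank number itself, which the longer B cell list makes larger, the split was 7 to 13. Spearman's rho between their deposited values was 0.765, given as a description, since the sites share 2 libraries and several belong to 1 gene. Both sites present in mock B cells were present in both IR lists, as were 84.2% of all mock B cell peaks, and in each case the mock peak overlapped the highest IR peak of its gene. How often this holds over all genes was not counted. The study reports that mock sites in general were among the most enriched IR peaks.

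**Figure D4:**
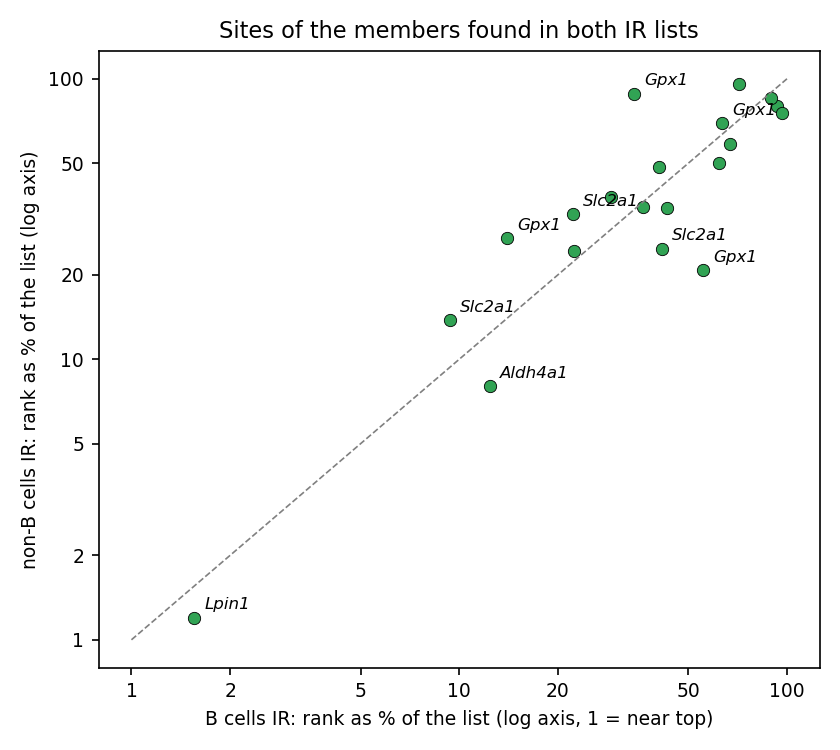
Rank as a percent of the list (log axes, low values near the top of a list) of the 20 sites found in both IR lists, irradiated B cells against irradiated non-B cells, with the line of equal rank dashed. The main site of Lpin1 stands alone at 1.55 and 1.2%, and 2 sites of Gpx1 lie far from the line on opposite sides.

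The counts of elements at member peaks were set beside those of the whole lists, with no test on so few peaks. Within 300 bp of the midpoint the unsplit element was found at 5 of 27 member peaks in irradiated B cells, against 15.3% of all peaks of that list (95% Wilson interval 14.9 to 15.8%). Of these 5 peaks, 2 were neighbours at Slc2a1 that counted the same element. In irradiated non-B cells the unsplit element was found at 6 of 22, against 15.4%. In the same window around the starts of all protein-coding genes the share was 2.66%. The form with a spacer was at 8 of 27 and 5 of 22 member peaks, against 15.9% and 15.3% of all peaks and 7.43% of all starts.

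The unsplit form depended on the limit. With at most 2 mismatches only Aldh4a1 had an unsplit element within 300 bp of a midpoint, 1 peak in each of mock B cells, irradiated B cells and irradiated non-B cells. At this limit the share of all peaks was lower too, at 18.6%, 10.1% and 10.4% in that order.

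The members were last set beside related genes, in 2 companion lists. The first held 18 paralogs and partners of the members. Like the members, they were chosen with earlier results of these data known. A peak within 10 kb was present at 13 of them in irradiated B cells, 12 in irradiated non-B cells, 2 in mock B cells and 0 in mock non-B cells, and around the start at 11 in either IR list. As shares of 18 these stand beside the 53.4%, 51.8%, 39.5% and 38.4% of all genes given above. The highest was at Sco1, which works with Sco2 on cytochrome c oxidase, with a value of 112 and rank 852 in irradiated B cells and 138 and rank 609 in irradiated non-B cells, in an intron 6064 bp from the start. Sco1 thus had a far higher-ranked peak than Sco2. Pank3, a further pantothenate kinase, had 47.6 and 31.2 at its start. Gpx4, which reduces lipid peroxides, had 43.6 and 54.6, but that peak was nearest to a start of Polr2e.

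The second list held 26 other genes of metabolism and antioxidant defence, among them Sesn1, Sesn2 and Tigar. Genes linked to p53 were not kept out of it, so it is not a background free of them. Of the 26 genes, 21 had a peak within 10 kb in irradiated B cells and 19 in irradiated non-B cells, with 1 in each mock list. Around the start 17 had one in either IR list. The highest was upstream of Sesn2, a sestrin of the antioxidant response, with 208 and rank 224 in irradiated B cells and 289 and rank 202 in irradiated non-B cells, ahead of Lpin1 in both. Sesn2 was also the gene of this list with a peak in mock, with 11.1 in mock B cells and 10.8 in mock non-B cells. G6pdx, the first enzyme of the pentose phosphate pathway, had 140 and 224, nearest to a start of Ikbkg. Pgam2, a glycolytic mutase, had 116 and 118, downstream of the gene. Of all protein-coding genes 53.4% and 51.8% had a peak within 10 kb in the IR lists, 4.45% and 2.27% in the mock lists, and 39.5% and 38.4% around the start in the IR lists.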

How the data were processed

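p53 ChIP-seq peak lists from 5 libraries were used; the input library was not analysed here. According to the study's methods, bases of quality under 20 were masked, reads aligned to mm9 with BWA (0.6.2 in the submitters' processing notes), and peaks called with MACS at p under 1e-08, 1 list per library. The value deposited by the authors was taken as −log10 of a peak p-value, inferred from its range and these methods. Its lowest values were 5.01 to 5.85, under the stated limit, so this reading may be wrong. Ranks use only its order. In the wild-type lists the smallest peak was 53 to 55 bp in mock and 174 to 175 bp after IR, and whether settings differed is not given in the sources used here. Sequencing depth is unknown, so absence from a list does not show absence of binding.

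Members and companion lists were chosen with earlier results of these data known. All members were named, with the 3 companion genes per list ranking highest in irradiated B cells. The rule for genes of like pattern needed members present in all 4 wild-type lists, of which there were 0. Overlap was at least 1 bp, and equal values shared a rank. Coordinates start at 1. The element windows held 601 bp. Overlap, rank and element steps recovered every planted item in 4 of 4 tests on simulated data. All 18 and 26 companion genes were found, Tigar under its older name. The tools were samtools 1.23.1 and Python 3.11.15 with matplotlib 3.10.9, pysam 0.24.0, scipy 1.17.1 and numpy 2.4.6. Alternatives were other extensions, overlap by midpoint, a minimum value of 8, removal of Trp53-/- peaks, other promoter windows, the nearest start, other mismatch limits and element windows, and ranking by width.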

Additional observations from a re-analysis of the deposited data

How the results depend on the processing

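All alternatives were set down with earlier results of these data known. Of 112 recomputed counts and ranks, 101 stayed within 1.5 times of the reported value. The 101 include counts of 0 that stayed 0, in mock non-B cells and Trp53-/- spleen IR. Stricter settings could not have changed these, so the total says little about the IR lists. The number of members with a peak stayed at 8 to 10 in irradiated B cells and 8 to 9 in irradiated non-B cells. From no extension to 50 kb, the share of all genes went from 39.8% to 71% in irradiated B cells. In irradiated non-B cells it went from 38.5% to 69.8%. The number of members with a peak around the start stayed at 8 to 9 and 7 to 8. There the share of all genes was 35.5 to 39.5% and 34.7 to 38.4%. The number of member peaks depended on the window by construction: without extension it was 17 in irradiated B cells and 13 in irradiated non-B cells, and with 50 kb it was 43 and 38. Peaks with an unsplit element went to 1 in irradiated B cells and 1 in irradiated non-B cells with at most 2 mismatches. In irradiated B cells they went to 1 within 100 bp of the midpoint and to 3 within the peak itself, and in mock B cells to 0 within the peak itself. Ranked by width, the best member peak, that of Lpin1, was at rank 136 in irradiated B cells and 87 in irradiated non-B cells. No paired analysis was possible because there was a single library per group, and none could be left out.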
